A study of Mus musculus with 20 samples.

Results

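A set of 8 named genes of cholesterol synthesis and its control, Hmgcs1, Idi1, Fdft1, Sqle, Lss, Dhcr7, Insig1 and Srebf2, were followed through hippocampal RNA-seq of mice with and without miR-34a and with and without an amyloid transgene. The 8 genes were taken by name, matched by symbol to the Ensembl rows of the count table, out of 39056 genes in the table. All 8 were among the 16107 genes left after the filter on low counts. The set holds 6 enzymes and 2 regulators of the pathway, and no receptor for cholesterol uptake is among them.

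The libraries came from 20 mice on a C57BL/6 background, 1 library from the left hippocampus of each, in 4 groups of 5. The Non-Tg groups lacked the transgene and were miR-34a WT (miR34a+/+) or miR-34a KO (miR34a-/-), and the Tg-SwDI groups carried it and were likewise WT or KO. Tg-SwDI mice carry human APP with the Swedish, Dutch and Iowa mutations under the Thy1 promoter, which drives the transgene in neurons. The knockout is constitutive and affects the whole body, and the mice were females of about a year of age that had been through a battery of behavioural tests. Total counts ran from 19549622 to 21066868 per library. Thy1, whose promoter carries the transgene, lay between 684.5 and 769.1 CPM (counts scaled to the library size after TMM normalization) without the transgene. It lay between 1905 and 2328 CPM in WT and between 2454 and 3318 CPM in KO Tg-SwDI mice. The 10 Tg-SwDI mice thus stood clear of the 10 Non-Tg mice, and the KO Tg-SwDI mice lay above the WT Tg-SwDI mice. The part of this Thy1 difference in the results below was not tested. The KO label was not checked here, because miR-34a itself was not read from these mRNA libraries. Bulk tissue cannot separate fewer cells of a type from less RNA per cell, and the p-values set group differences against the spread between mice.

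Cells build cholesterol from acetyl-CoA through mevalonate and isoprenoids to squalene, which is closed into the first sterol and trimmed to cholesterol. The transcription factor SREBP2, the product of Srebf2, switches these genes on when sterols in the endoplasmic reticulum are low, and INSIG1 holds its precursor there when sterols are high. The brain makes its own cholesterol behind the blood-brain barrier, much of it for myelin and, in the adult, in astrocytes that pass it to neurons on ApoE particles.

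Because the groups differ in miR-34a, the complement of its seed was looked up in the 3′ untranslated regions (3′UTRs) of the 8 genes in the GENCODE M21 annotation. The mature miRNA (RefSeq, GRCm38.p6, chr4:150068473-150068494, plus strand) is shown with its seed, bases 2 to 8, in capitals, and below it the 3 matches found, with the letters that pair with the seed in capitals.

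mmu-miR-34a-5p: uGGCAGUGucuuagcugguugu

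Dhcr7 match 1: tattcagggggCACTGCCcactgcac

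Dhcr7 match 2: ctcattagggaCACTGCCcccccccc

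Fdft1 match: aatggtgatccCACTGCCtcagcctt

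The Dhcr7 matches lie at chr7:143848085-143848091 and chr7:143848311-143848317 on the plus strand, and the Fdft1 match at chr14:63145515-63145521 on the minus strand. Both letter strings searched were CACTGCC and ACTGCCA, which share 6 letters. No match was found in the 3′UTR of any annotated coding transcript of Hmgcs1, Idi1, Sqle, Lss, Insig1 or Srebf2. Among 14708 tested genes with a coding 3′UTR, 23.58% held at least 1 match in their longest 3′UTR and 5.57% held 2 or more. A match is a description of the letters and not evidence of regulation.

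The groups were first compared for each enzyme in pathway order. Hmgcs1, which makes HMG-CoA at the entry to the mevalonate pathway, had the highest level per length of the 8 genes, 55.3 ± 4.14 RPKM (CPM per kilobase of exon, SD, n = 20 mice). Its level was 247.5, 243.4, 244.8, 239.9 and 214.5 CPM in WT Non-Tg replicates 2, 3, 4, 6 and 7, and 269.1, 265.1, 261.3, 250.3 and 240.7 CPM in KO Non-Tg replicates 1, 2, 4, 7 and 8. It was 233.3, 246.5, 259.8, 252.1 and 272.6 CPM in WT Tg-SwDI replicates 3, 4, 5, 6 and 7, and 256.3, 270.2, 308.6, 260.8 and 243.4 CPM in KO Tg-SwDI replicates 1, 2, 3, 5 and 8. These are the replicate numbers of the labels and keep this order below. The 4 groups overlapped, and the log2 fold changes between 0.06 and 0.11 in the 4 pairwise comparisons all missed the threshold.

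Idi1, the isomerase of the isoprenoid branch point, was the lowest of the 8 genes per length, at 2.88 ± 0.335 RPKM (SD, n = 20). Without the transgene its mean was 9.69 ± 0.41 CPM in WT and 10.8 ± 1.10 CPM in KO mice, and with the transgene 9.36 ± 0.99 CPM in WT and 10.4 ± 1.59 CPM in KO mice (SD, n = 5 each). KO groups had the higher means with and without the transgene, by a log2 fold change of 0.16 in both cases, and neither difference passed the test.

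Fdft1, squalene synthase, commits the pathway to sterols. It was at 100.7, 98.9, 106.2, 101.5 and 96.0 CPM in WT Non-Tg and at 94.7, 97.3, 91.7, 92.8 and 91.7 CPM in KO Non-Tg mice. It was at 90.9, 102.3, 110.5, 99.8 and 106.7 CPM in WT Tg-SwDI and at 106.1, 99.7, 142.9, 117.6 and 130.2 CPM in KO Tg-SwDI mice. All 5 KO Tg-SwDI mice lay above all 5 KO Non-Tg mice, with replicates 3 and 8 the highest of the 20 mice. Relative to KO Non-Tg mice, Fdft1 rose in KO Tg-SwDI mice by a log2 fold change of 0.35 ± 0.07 (SE), or 27.4%, with an adjusted p of 0.000814 (quasi-likelihood test of edgeR, adjusted by Benjamini-Hochberg over all genes).

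Sqle, squalene epoxidase, catalyses a rate-limiting step after squalene. Its levels were 76.2, 76.6, 75.7, 78.9 and 74.6 CPM in WT Non-Tg, and 73.6, 77.1, 72.3, 70.6 and 71.8 CPM in KO Non-Tg mice. They were 70.8, 75.0, 74.3, 76.7 and 77.6 CPM in WT Tg-SwDI, and 74.1, 79.2, 106.6, 86.5 and 93.8 CPM in KO Tg-SwDI mice. KO Tg-SwDI replicates 2, 3, 5 and 8 stood above every mouse of the other groups, replicate 2 by less than 1 CPM, while replicate 1 lay within their range. Sqle rose in KO Tg-SwDI against KO Non-Tg mice by a log2 fold change of 0.27 ± 0.07 (SE), or 20.5% (edgeR, adjusted p = 0.00444).

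Lss, lanosterol synthase, closes the squalene epoxide into the first sterol. It was at 33.3, 35.7, 29.6, 32.0 and 30.3 CPM in WT Non-Tg and at 38.8, 38.7, 37.4, 35.4 and 35.1 CPM in KO Non-Tg mice. It was at 38.6, 32.7, 32.1, 33.3 and 36.1 CPM in WT Tg-SwDI and at 39.9, 40.0, 38.4, 41.3 and 38.1 CPM in KO Tg-SwDI mice. Its order differed from that of Fdft1 and Sqle: both KO groups had the higher means, by log2 fold changes of 0.20 ± 0.06 without and 0.19 ± 0.06 (SE) with the transgene. The ranges of the WT and KO mice overlapped in both cases. Over both transgene states the KO effect on Lss was 0.20 ± 0.04 (log2, SE), or 14.8%, with an unadjusted p of 7.17e-05 that became 0.077 after adjustment over all genes in edgeR and did not pass.

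Dhcr7 encodes the reductase that turns 7-dehydrocholesterol into cholesterol, the last step of one branch of the pathway. It was at 37.3, 37.8, 40.1, 37.0 and 36.4 CPM in WT Non-Tg and at 35.2, 37.1, 33.8, 31.2 and 33.4 CPM in KO Non-Tg mice. It was at 31.8, 38.8, 35.4, 35.8 and 37.9 CPM in WT Tg-SwDI and at 37.6, 40.1, 50.4, 43.1 and 57.9 CPM in KO Tg-SwDI mice. The 5 KO Tg-SwDI mice did not overlap the KO Non-Tg mice, and replicates 3, 5 and 8 held the 3 highest levels of the 20 mice. Dhcr7 had the largest change of the 8 genes, a rise of 0.42 ± 0.09 (log2, SE), or 34.2%, in KO Tg-SwDI against KO Non-Tg mice (edgeR, adjusted p = 0.000805).

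Of the regulators, Insig1 was at 66.7, 69.6, 69.0, 61.7 and 64.6 CPM in WT Non-Tg and at 63.9, 69.5, 62.5, 57.0 and 65.5 CPM in KO Non-Tg mice. It was at 66.2, 74.1, 71.7, 65.7 and 72.3 CPM in WT Tg-SwDI and at 74.6, 81.6, 84.5, 67.8 and 63.8 CPM in KO Tg-SwDI mice. Replicates 1, 2 and 3 of the KO Tg-SwDI group were the highest of the 20 mice and replicates 5 and 8 were within the range of KO Non-Tg mice, which is not the set of high mice seen for Dhcr7. Insig1 rose in KO Tg-SwDI against KO Non-Tg mice by 0.23 ± 0.07 (log2, SE), or 16.9% (edgeR, adjusted p = 0.0182). The call was lost without KO Non-Tg replicate 7 (adjusted p = 0.0645) and without KO Tg-SwDI replicate 3 (adjusted p = 0.0656).

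Srebf2 encodes the SREBP2 precursor itself. Without the transgene its mean was 266.3 ± 10.5 CPM in WT and 263.6 ± 7.62 CPM in KO mice, and with the transgene 262.5 ± 16.5 CPM in WT and 275.4 ± 15.5 CPM in KO mice (SD, n = 5 each). Its log2 fold changes in the 4 pairwise comparisons lay between -0.02 and 0.07 and none passed the test. Messenger RNA levels do not show how much of the SREBP2 protein is cleaved and active.

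**Figure D1:**
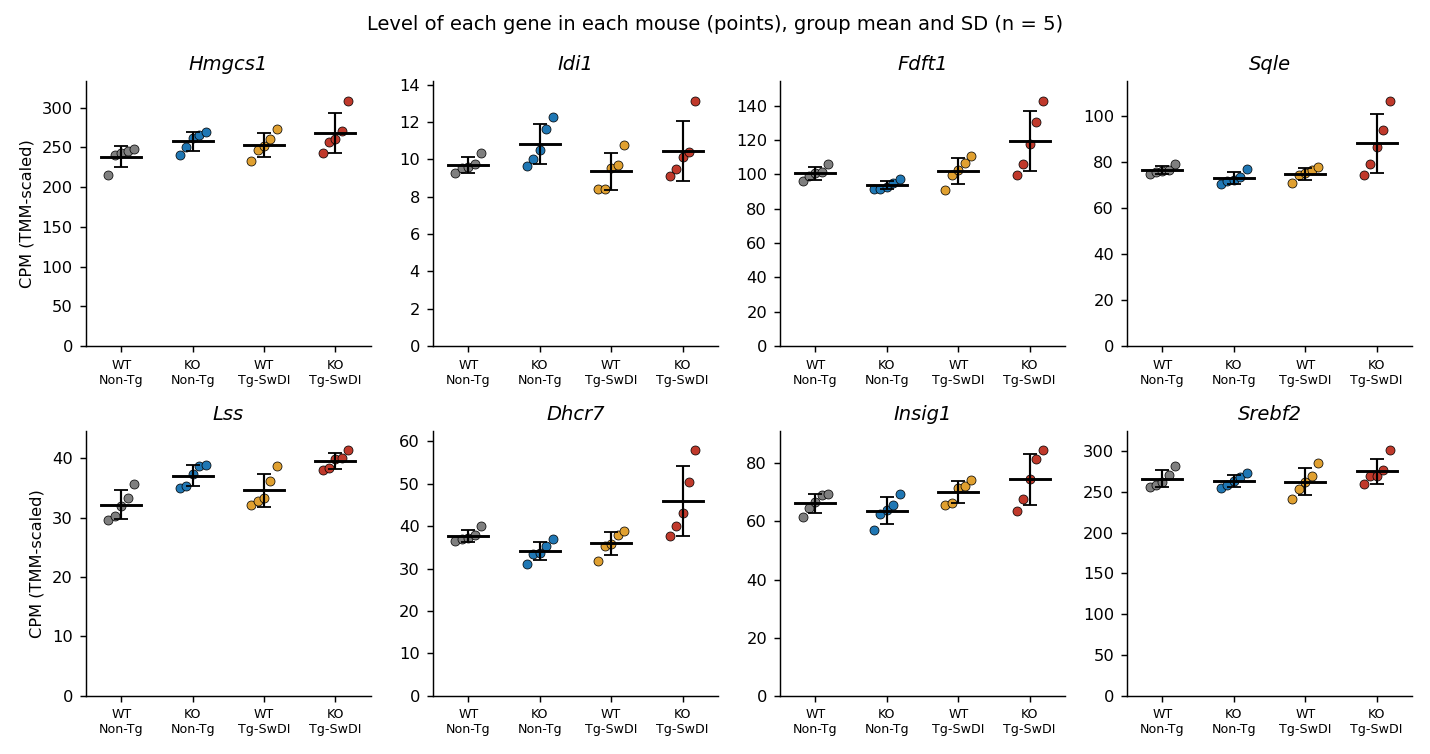
CPM after TMM scaling (vertical axes, each from 0) of the 8 genes in each of 20 mice (points) by group, with the group mean (line) and SD (bars, n = 5). For each of the 8 genes the highest mouse is of the KO Tg-SwDI group, at 142.9 CPM for Fdft1, 106.6 CPM for Sqle and 57.9 CPM for Dhcr7. For each gene the range of the KO Tg-SwDI group also overlaps that of another group.

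Per length, the order of the 8 genes over the 20 mice was Hmgcs1, Srebf2 (37.2 ± 1.82 RPKM), Fdft1 (24.6 ± 3.13), Insig1 (22.2 ± 2.13), Sqle (14.1 ± 1.55), Dhcr7 (6.60 ± 1.07), Lss (3.32 ± 0.318) and Idi1 (SD, n = 20). Fdft1 and Insig1 did not differ beyond their spread, nor did Lss and Idi1. The ranges of Srebf2 and Fdft1, and of Insig1 and Sqle, met through 1 mouse of each gene, and those of the other neighbours did not overlap. The order was the same when the longest transcript of each gene was taken as its length in place of all its exons. The counts behind these levels were 178 to 6387 reads per gene and mouse.

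The question of how the transgene altered these genes was asked in each miR-34a genotype. In KO mice, Tg-SwDI against Non-Tg, 4 of the 8 genes rose (Fdft1, Sqle, Dhcr7 and Insig1) and none fell. Of all 16107 genes, 20.8% passed in this comparison in either direction and 12.5% passed as higher. The median log2 fold change of the 8 genes was 0.16, beside 0.00 over all genes tested. The 5 mice of each group did not overlap for 2 of the 8 genes, Fdft1 and Dhcr7, beside 12.8% of all genes. In WT mice, Tg-SwDI against Non-Tg, 0 of the 8 genes passed in edgeR, DESeq2 or edgeR's exact test, and 4.41% of all genes passed in edgeR. Of the 8, 0 had an unadjusted p under 0.05 in edgeR, beside 2448 of all 16107 genes. The median log2 fold change of the 8 genes was 0.00, with a range from -0.07 for Dhcr7 to 0.10 for Lss.

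The effect of miR-34a loss was then compared in each transgene state. In Tg-SwDI mice, KO against WT, Dhcr7 alone of the 8 passed, higher by 0.35 ± 0.09 (log2, SE), or 27.5% (edgeR, adjusted p = 0.0353). In this comparison 1.99% of all genes passed and 1.48% passed as higher. Sqle was 0.23 ± 0.07 higher (adjusted p = 0.0577), Fdft1 0.23 ± 0.07 (adjusted p = 0.0871) and Lss 0.19 ± 0.06 (log2, SE, edgeR, adjusted p = 0.0803), none of which passed. All 8 fold changes were above 0, with a median of 0.18 beside 0.00 over all genes, of which 50.66% were above 0. The Dhcr7 call was lost without any 1 of WT Tg-SwDI replicates 3, 5, 6 and 7 and KO Tg-SwDI replicates 3 and 8, with adjusted p from 0.0584 to 0.1, and in edgeR fits of the compared groups alone (adjusted p = 0.157).

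In Non-Tg mice, KO against WT, 0 of the 8 genes passed in edgeR, DESeq2 or edgeR's exact test, and 1, Lss, had an unadjusted p under 0.05. In edgeR's quasi-likelihood test 0% of all genes passed this comparison, with 1302 genes at an unadjusted p under 0.05, 7 genes called by DESeq2 and 57 by edgeR's exact test on the 10 mice alone. The fold changes of Dhcr7 and Fdft1, the genes with a seed match, were -0.14 ± 0.09 and -0.10 ± 0.07 here (log2, SE), opposite in sign to those between the Tg-SwDI groups, as were those of Sqle and Insig1 (-0.06 each) and Srebf2 (-0.02 ± 0.05), which hold no match.

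**Figure D2:**
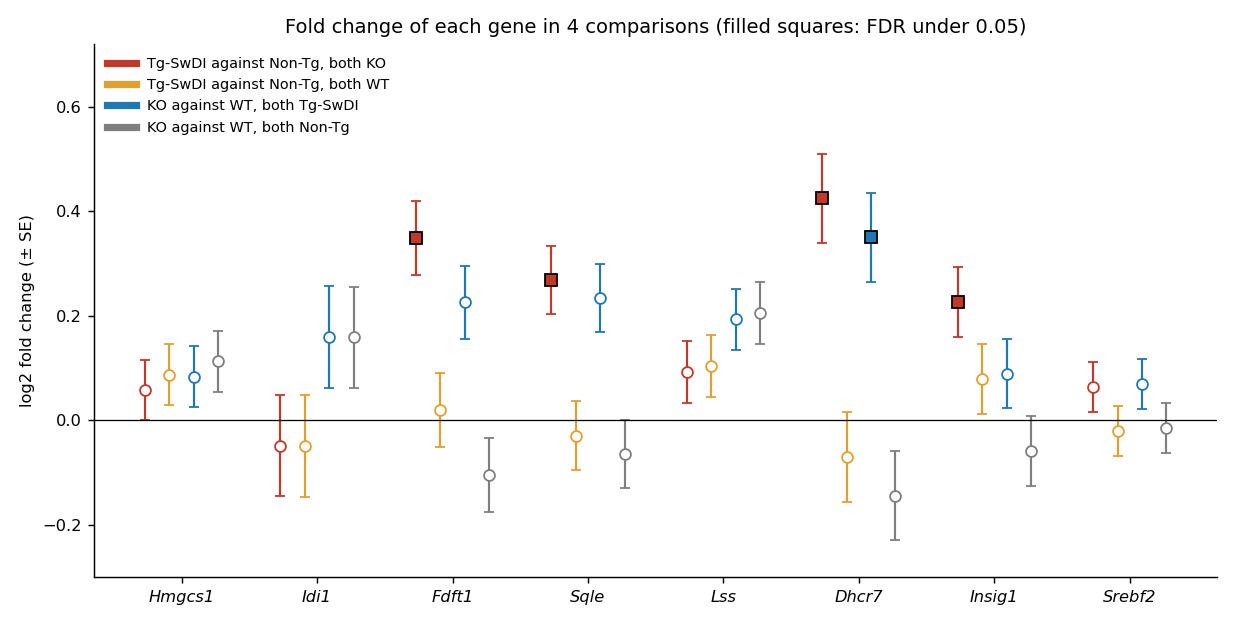
Log2 fold change (vertical axis, bars are SE) of the 8 genes in 4 comparisons of 5 against 5 mice, given by colour, with filled squares where the adjusted p in edgeR was under 0.05. Fdft1, Sqle, Dhcr7 and Insig1 are filled for Tg-SwDI against Non-Tg in KO mice and Dhcr7 also for KO against WT in Tg-SwDI mice, and no gene is filled in the other comparisons.

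Whether the KO effect itself differed with the transgene was tested by the interaction of both factors. For Dhcr7 the interaction was 0.49 ± 0.12 (log2, SE) with an adjusted p of 0.0532 in edgeR, for Fdft1 0.33 ± 0.10 (adjusted p = 0.106) and for Sqle 0.30 ± 0.09 (adjusted p = 0.112). Thus 0 of the 8 genes passed in edgeR and 1, Dhcr7, passed in DESeq2. Of the 8, 3 had an unadjusted p under 0.05 in edgeR, beside 2821 of all 16107 genes. After adjustment 0.608% of all genes passed in edgeR. That share is 98 genes, against 482 called by DESeq2 and 14 to 500 with 1 mouse left out. A gene that passed in KO mice and not in WT mice is therefore not shown to respond differently in these groups. Without KO Tg-SwDI replicate 2 the interaction passed for 3 genes, without replicate 1 for 2, and without KO Tg-SwDI replicate 8 or KO Non-Tg replicate 2 for 1.

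Averaged over both miR-34a genotypes, the transgene raised 3 of the 8 genes: Fdft1 by 0.18 ± 0.05, Insig1 by 0.15 ± 0.05 and Dhcr7 by 0.18 ± 0.06 (log2, SE), with adjusted p of 0.0111, 0.0267 and 0.0448 in edgeR. In WT mice alone the transgene effects on these 3 genes were 0.02 ± 0.07, 0.08 ± 0.07 and -0.07 ± 0.09 (log2, SE), and none passed. In the average over both genotypes 17.2% of all genes passed and 11.3% passed as higher. The Dhcr7 call was lost under 19 of 29 alternatives, among them another scaling (RLE, adjusted p = 0.0517 in edgeR), no filter (0.0588) and the omission of any 1 of 14 mice. The count fell to 1 without KO Non-Tg replicate 7, KO Tg-SwDI replicate 3, WT Non-Tg replicate 6 or WT Tg-SwDI replicate 4, and to 0 with a covariate for choroid plexus genes or with the trend on GC content and length removed. Averaged over both transgene states, miR-34a loss changed 0 of the 8 genes by edgeR, beside 0.0807% of all genes, and 1, Lss, by DESeq2. Of the 8, 3 had an unadjusted p under 0.05 in edgeR, beside 1500 of all 16107 genes. These comparisons share groups and are not independent of each other.

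The 20 mice were next compared one by one. In KO Tg-SwDI replicate 3 all 8 genes were above their own mean over the 20 mice and 6 were at their highest. The mean deviation of the 8 genes was 0.32 (log2) in that mouse, 0.15 in KO Tg-SwDI replicate 8, and between -0.13 and 0.09 in the other 18 mice. Replicate 8 held the highest Dhcr7 but was below the mean for Hmgcs1 and Insig1. Without replicate 3 the log2 fold changes in KO Tg-SwDI against KO Non-Tg mice were 0.28 for Fdft1, 0.19 for Sqle and 0.39 for Dhcr7, each still past the threshold.

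**Figure D3:**
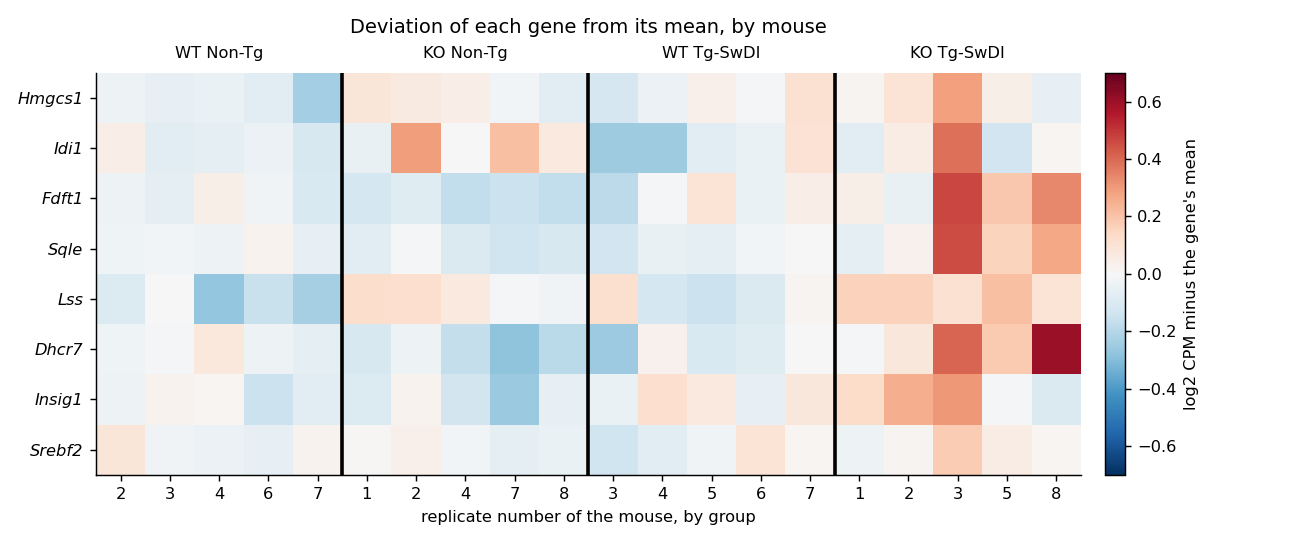
Log2 CPM of each gene minus its mean over the 20 mice (colour scale, red higher and blue lower), with mice in columns by group and replicate number. The column of KO Tg-SwDI replicate 3 is red for all 8 genes, and that of replicate 8 is darkest for Dhcr7.

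Fdft1, Sqle and Dhcr7 followed each other from mouse to mouse. Pearson's r of log2 CPM over the 20 mice was 0.922 for Fdft1 with Sqle, 0.891 for Fdft1 with Dhcr7 and 0.897 for Sqle with Dhcr7, and Spearman's rho was 0.717, 0.798 and 0.839. After the group means were removed, r was 0.866, 0.786 and 0.787. When the KO Tg-SwDI mice 3 and 8 were then left out, it came to 0.76, 0.782 and 0.863. The means removed were still those of all 20 mice, so mice 3 and 8 entered the KO Tg-SwDI mean. These values therefore do not show how closely the genes followed each other apart from those mice. For Lss, r with the other 7 genes was 0.145 to 0.523 over the 20 mice, highest with Hmgcs1, and -0.338 to 0.119 after the group means were removed. Over all 28 pairs of the 8 genes the median r was 0.481, and 0.203 without KO Tg-SwDI replicate 3. These values are descriptions across mice that share a library preparation and a scaling, and no p is given.

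The 10 other genes whose level was most like the mean of the 8 over the 20 mice were Msmo1 (r = 0.88), Serpinf1 (0.872), Sec24d (0.85), Plbd2 (0.847), F3 (0.809), Nsdhl (0.799), Sox11 (0.798), Scg3 (0.796), Kcne1l (0.794) and Prr5 (0.792). Msmo1 and Nsdhl encode enzymes that remove the methyl groups of the early sterols, so that 2 of the 10 belong to the same pathway. Ranked by Spearman's rho, 1 of the 10 stayed among the first 10. With the group means removed, the 10 were Msmo1 (0.812), 2810021J22Rik, Serpinf1, Rprml, Sec24d, Sc5d, Pphln1, Pdk4, Hsd17b7 and Acvr1c (0.717), of which Msmo1, Sc5d and Hsd17b7 are sterol enzymes. The 15 other genes of sterol synthesis had a median r of 0.583 with the mean of the 8, beside -0.015 over the 16099 genes outside the set. Over the 20 mice the likeness was not particular to sterol genes, since the median r was 0.601 for 11 genes of fatty acid synthesis and 0.56 for 8 microglial markers. With the group means removed, the median r was 0.582 for the 15 sterol genes, 0.46 for fatty acid synthesis and 0.188 for the microglial markers. Over all genes outside the set it was then 0.009.

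The rest of the pathway was read in lists of genes. Among 15 other genes of sterol synthesis, 3 rose in KO Tg-SwDI against KO Non-Tg mice, 0 fell and 12 did not pass, a share close to that of all genes, of which 20.8% passed and 12.5% passed as higher. Those that rose were Msmo1 by 0.38 ± 0.07, Nsdhl by 0.38 ± 0.09 and Mvd, the decarboxylase that ends the mevalonate pathway, by 0.31 ± 0.10 (log2, SE, edgeR, adjusted p = 0.000278, 0.00218 and 0.0283). In KO against WT Tg-SwDI mice 0 of the 15 passed in edgeR, beside 1.99% of all genes. Of the 15, 6 had an unadjusted p under 0.05, beside 3052 of 16107 genes, and 2 were called by DESeq2. In the 2 comparisons that leave out the KO Tg-SwDI group 0 of the 15 passed in edgeR or DESeq2, with 1 at an unadjusted p under 0.05 in each. Of all genes, 4.41% passed in edgeR for the transgene in WT mice and 0% for miR-34a loss in Non-Tg mice. At an unadjusted p under 0.05 there were 2448 and 1302 of 16107 genes, in the same order.

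Of 15 genes for uptake, intracellular transport and control of SREBP2, 6 rose and 1 fell in the same comparison, in which 12.5% of all genes passed as higher and 8.31% as lower. Npc2 and Npc1, which carry cholesterol out of lysosomes, rose by 1.09 ± 0.10 and 0.25 ± 0.05, Lipa, the lysosomal acid lipase, by 0.60 ± 0.10, Mylip, which marks lipoprotein receptors for degradation, by 0.40 ± 0.08, and Stard4, a cholesterol carrier, by 0.23 ± 0.08 (log2, SE, edgeR, adjusted p = 5.65e-08, 0.000696, 5.3e-05, 0.000546 and 0.0364). Insig2, a relative of Insig1, fell by 0.18 ± 0.06 (log2, SE, edgeR, adjusted p = 0.0412). In WT mice Npc2 alone of the list rose with the transgene, by 0.63 ± 0.10, where 3.94% of all genes passed as higher. Lrp1, a large endocytic receptor for ApoE, was the highest of this list per length at 25.4 RPKM.

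Of 10 genes for export, storage and turnover of cholesterol, 5 rose in KO and 4 in WT mice with the transgene, beside 12.5% and 3.94% of all genes. Ch25h, which makes 25-hydroxycholesterol, rose by 3.02 ± 0.29 in KO and 2.29 ± 0.28 in WT mice. Apoe, the main lipid carrier of the brain and the highest of the list per length at 829.6 RPKM, rose by 0.83 ± 0.06 and 0.50 ± 0.06, and Soat1, which esterifies cholesterol for storage, by 0.40 ± 0.06 and 0.33 ± 0.06 (log2, SE, edgeR). Abca1, a cholesterol exporter, rose by 0.30 ± 0.10 in KO and 0.47 ± 0.10 in WT mice, and Cyp27a1, the sterol 27-hydroxylase, passed in KO mice, at 0.54 ± 0.14. Between the Tg-SwDI groups Apoe was again higher in KO mice, by 0.28 ± 0.06 (log2, SE, edgeR, adjusted p = 0.0156).

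Of 11 genes of fatty acid synthesis, many of them targets of the related factor SREBP1, 6 rose in KO mice with the transgene, beside 12.5% of all genes. In WT mice, where 4.41% of all genes passed, 0 of 11 passed in edgeR, a share near that background at this threshold, and 1 was called by DESeq2. At an unadjusted p under 0.05 in edgeR there were 5 of the 11, beside 2448 of all 16107 genes. Those that rose in KO mice were Scd1 (0.40 ± 0.07), Fads2 (0.36 ± 0.07), Fads1 (0.32 ± 0.05), Srebf1 (0.31 ± 0.08), Me1 (0.20 ± 0.05) and Scd2 (0.17 ± 0.06), where values are log2 fold changes ± SE. Scd2, a stearoyl-CoA desaturase of the brain, was the highest of the list per length at 323 RPKM. Between the Tg-SwDI groups Fads2 was higher in KO mice, by 0.28 ± 0.07 (log2, SE, edgeR, adjusted p = 0.0321).

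**Figure D4:**
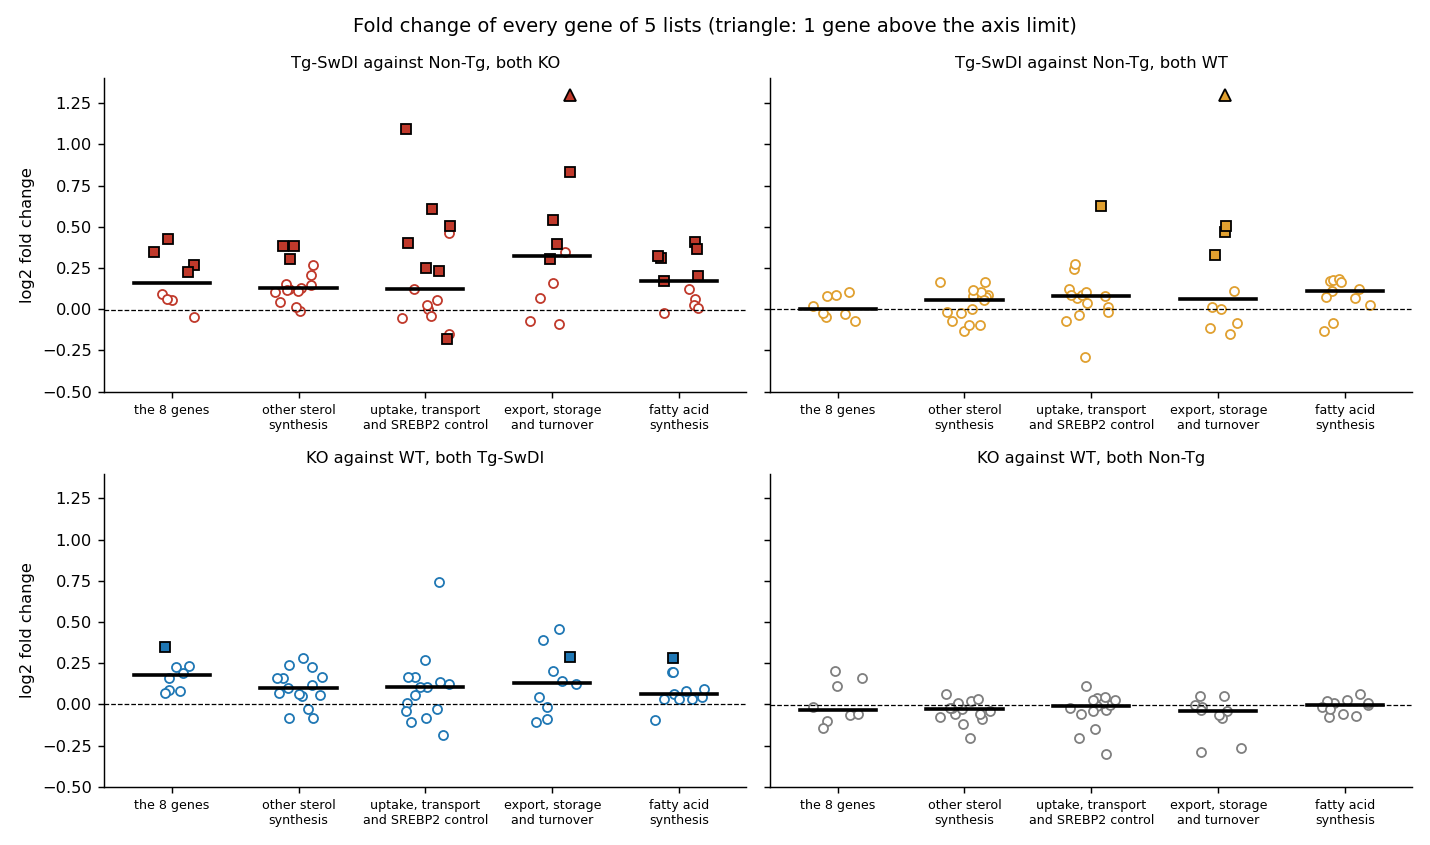
Log2 fold change (vertical axis) of every gene of 5 lists in 4 comparisons, with filled squares where the adjusted p in edgeR was under 0.05, a bar at the median of the list and a dashed line at the median of all genes. Triangles at the upper limit stand for Ch25h, at 3.02 and 2.29. Filled points among the 8 genes and the other sterol enzymes appear for Tg-SwDI against Non-Tg in KO mice, 4 and 3 genes, and Dhcr7 is filled for KO against WT in Tg-SwDI mice.

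Markers of several cell types moved in the same comparison, and their part in the results was not tested. Of all genes, 12.5% passed as higher and 8.31% as lower with the transgene in KO mice, and 3.94% passed as higher in WT mice. All 8 microglial and all 8 plaque-associated microglial markers rose with the transgene in KO and in WT mice. The summed microglial markers lay between 303.4 and 321.9 CPM in KO mice without and between 888.1 and 1150 CPM in KO mice with the transgene, and the WT mice lay between 308.7 and 422.7 CPM and between 731.3 and 876.9 CPM. The plaque-associated list, led by Axl, summed to 125 to 134.9 CPM in KO Non-Tg and 551 to 763.1 CPM in KO Tg-SwDI mice. Of 8 astrocyte markers, 3 rose in KO and 4 in WT mice, and their sum, in which Slc1a2 was the most abundant gene, was 4368 to 4686 CPM in KO Non-Tg and 5615 to 7106 CPM in KO Tg-SwDI mice. Each of these markers had counts in every mouse. In KO against WT Tg-SwDI mice, where Dhcr7 passed, 5 of 8 plaque-associated and 2 of 8 microglial markers also passed as higher. So did 1 of 8 astrocyte and 1 of 6 vessel markers, beside 1.48% of all genes.

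Oligodendrocytes make sterols for myelin, and 5 of 10 oligodendrocyte markers rose in KO Tg-SwDI against KO Non-Tg mice, beside 12.5% of all genes. Their summed level, in which Mbp was the most abundant gene, was 4970 to 5933 CPM in KO Non-Tg and 6048 to 8016 CPM in KO Tg-SwDI mice, and 5852 to 6630 and 6481 to 6868 CPM in the WT groups. Over the 20 mice, the median r with the mean of the 8 genes was 0.255 for these 10 markers, 0.527 for the astrocyte, 0.56 for the microglial and 0.496 for the plaque-associated list, and with the group means removed it was 0.021, 0.39, 0.188 and -0.003. Of 6 precursor markers, led by Pdgfra, 2 rose in KO mice, beside the same 12.5%. The 8 neuronal markers, led by Camk2a, summed to 9944 to 10540 CPM in KO Non-Tg and 9012 to 12540 CPM in KO Tg-SwDI mice. The 12540 CPM came from replicate 8, flagged below for its mitochondrial share, and the other KO Tg-SwDI mice reached at most 10150 CPM. Of the 8 markers, 2 fell in KO mice with the transgene, beside 8.31% of all genes. The 6 hippocampal neuron markers, led by Wfs1, were detected in every mouse, and 1 of them fell, beside the same 8.31%.

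Markers of choroid plexus, the tissue that secretes cerebrospinal fluid, varied widely between mice. Its 8 markers, nearly all from Ttr, summed to 62.5 to 344 CPM in KO Non-Tg mice and to 60.7 to 4282, 116.8 to 3740 and 125.6 to 3855 CPM in WT Non-Tg, WT Tg-SwDI and KO Tg-SwDI mice. Of the 8 markers, 6 rose in KO mice with the transgene, beside 12.5% of all genes. With the choroid plexus level as a covariate the transgene effect in KO mice was 0.30 for Fdft1, 0.25 for Sqle, 0.38 for Dhcr7 and 0.25 for Insig1 (log2), and all 4 still passed. None of the 5 thalamic and 4 tested blood markers passed in this comparison, while 1 of 6 vessel markers rose. Vessel markers, led by Rgs5, summed to 258.1 to 319.8 CPM over the 20 mice, blood markers, led by Hbb-bs, to 1.55 to 22.7 CPM and thalamic markers, led by Calb2, to 61.5 to 99.5 CPM.

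Overlapping genes limit some of these values, because the strand setting of the counting and its handling of reads from more than 1 gene were not given in the sources used here. The 3′ end of Fdft1 shares 774 exonic bases with the 3′ end of Ctsb on the opposite strand, at chr14:63145150-63145923 of mm10, a stretch that holds the seed match printed above. Ctsb, the lysosomal protease cathepsin B, was at 522.2 to 555.5 CPM in KO Non-Tg and 878.4 to 1025 CPM in KO Tg-SwDI mice, and its part in the Fdft1 values was not tested. Over the 20 mice, r with Ctsb was 0.697 for Fdft1, the highest of the 8 genes, 0.654 for Dhcr7 and 0.597 for Sqle, and with the group means removed it was 0.264, 0.578 and 0.221. Hmgcs1, Idi1 and Lss share 557, 323 and 381 exonic bases with antisense genes annotated on the opposite strand, and Sqle, Dhcr7, Insig1 and Srebf2 with none.

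The promoters were read for the letters of 3 binding motifs on both strands in RefSeq windows of 250 bases before to 50 after the start site (GRCm38.p6), of which 6 of the 8 genes had 1 or more. The core of the sterol regulatory element, TCACNCCA, was found in the windows of Hmgcs1 and Srebf2, beside 4.36% of 32851 windows. CCAAT, the box bound by NF-Y, was in a window of all 6 genes (37.4% of all windows), as was GGGCGG, bound by Sp1 (35.7%). The 220 bases before the start site of both genes with the sterol element are shown, with that element and CCAAT, on either strand, in capitals, at chr13:119690131-119690350 and chr15:82147049-82147268, both on the plus strand.

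Hmgcs1: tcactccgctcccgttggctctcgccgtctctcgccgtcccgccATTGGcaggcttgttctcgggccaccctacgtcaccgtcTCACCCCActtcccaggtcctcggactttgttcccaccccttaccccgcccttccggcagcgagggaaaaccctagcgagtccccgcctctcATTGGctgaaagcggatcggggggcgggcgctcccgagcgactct

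Srebf2: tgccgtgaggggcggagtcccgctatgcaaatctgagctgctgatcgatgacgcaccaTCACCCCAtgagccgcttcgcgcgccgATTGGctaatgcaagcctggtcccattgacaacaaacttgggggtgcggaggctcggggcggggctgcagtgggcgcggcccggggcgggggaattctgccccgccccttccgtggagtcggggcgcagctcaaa

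The element starts 137 bases before the start site in Hmgcs1 and 162 in Srebf2. Neither gene passed the test in any comparison above, and Dhcr7 and Insig1, which passed, held none of these 8 letters in their windows, from which nothing follows about SREBP2 at either gene.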

How the data were processed

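The data were read counts per gene in 20 hippocampal RNA libraries, 1 per mouse (4 groups of 5 females). Per the labels and methods, the authors used a stranded mRNA kit, STAR on mm10 and featureCounts on Ensembl genes, and the counts were deposited raw. Tool versions and the strand setting were not given in the sources used here. Symbols came from GENCODE M21 (38872 of 39056 rows, 99.53%).

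Genes were filtered with filterByExpr (minimum count 10), scaled by TMM and fitted over all 20 mice with 4 group means in edgeR 4.0.16 (limma 3.58.1, R 4.3.3). Quasi-likelihood tests used Benjamini-Hochberg adjustment over all 16107 genes and an FDR threshold of 0.05. The authors' exact test, DESeq2 1.42.0, other filters and scalings, covariates, a replicate block and the omission of each mouse were tried as alternatives. Levels are CPM, and RPKM is CPM per kilobase of exon. Correlations used log2 CPM with a prior count of 2. Scripts were tested on simulated data.

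The 8 genes, the lists and the markers were chosen with earlier results of these data known. Genes of the other lists were named if they passed (at most 6 per list and comparison, by adjusted p), if highest per length or, for cell types, most abundant, and for likeness the 10 with the highest r. Genes of the lists that are not named were counted and are not reported here.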

Additional observations from a re-analysis of the deposited data

Results flagged for a closer look

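Of 36 sets of 5 mice examined (32 for the 8 genes and 4 for the mitochondrial share of counts), 2 held a mouse far from the other 4, and chance alone flags about 1 in 20 such sets. Hmgcs1 was at 214.5 CPM in WT Non-Tg replicate 7, below the other mice of its group. The mitochondrial share of counts was 14.6% in KO Tg-SwDI replicate 8, against 6.94% to 8.76% in the other 19 libraries. That mouse had the highest Dhcr7. Without it Dhcr7 still rose in KO Tg-SwDI against KO Non-Tg mice, by 0.33 (log2).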

How the results depend on the processing

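The count of the 8 genes that passed for Tg-SwDI against Non-Tg in KO mice was 3 or 4 under all 32 alternatives, and Fdft1, Sqle and Dhcr7 passed under each. Insig1 lost its call with library size alone as the scaling (adjusted p = 0.0761), with the trend on GC content and length removed (0.187) and with the compared groups fitted alone (0.0562), besides the 2 mice named above. With that trend removed, the log2 fold changes of Hmgcs1 and Srebf2 turned to -0.0036 and -0.0073, and with 1 mouse left out that of Idi1 ranged from -0.15 to 0.0054. In both comparisons without the KO Tg-SwDI group, 0 of the 8 passed under every alternative.

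For KO against WT in Tg-SwDI mice, where 1 gene passed, the count was 3 with DESeq2, 2 with the exact test on dispersions of all 20 mice, with no filter, with a covariate for choroid plexus or with the stricter filter (mean CPM of at least 1), but 0 with the trend on GC content and length removed, the compared groups alone, the exact test on 10 mice or a replicate block. With 1 mouse left out it ranged from 0 to 3. The interaction passed for 1 gene with DESeq2 or no filter, and for 0 to 3 with 1 mouse left out. The average Tg-SwDI effect, 3 genes, came to 0 with that trend removed or the covariate, 1 with a replicate block, and 1 to 4 with 1 mouse left out. The average KO effect, 0 genes, came to 1 (Lss) with DESeq2, no filter or that trend removed, and 0 to 1 with 1 mouse left out. The causes of these shifts were not tested.

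Over all genes, KO against WT in Tg-SwDI mice called 320 genes, 58 with the compared groups alone, 733 with DESeq2 and 8 with a replicate block, and the covariate lowered the transgene effect in KO mice from 3351 to 1264 genes. The replicate numbers gave no sign of pairing (median correlation of deviations -0.039 for mice with the same number), so the block is only an arbitrary term. By Spearman's rho 1 of the 10 genes most like the set was shared. Levels per length rose with the longest transcript as the length, for Dhcr7 from 6.60 to 13.6 RPKM. The coefficient of variation between mice was 2.08% to 18.02% within a group, on counts from 178 reads per gene and mouse, so counting error is not small beside the lowest of these values.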
